A study of Mus musculus with 30 samples.

Results

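Mouse embryonic fibroblasts that carried a non-acetylatable MyoD were compared with the same kind of cells that carried an empty retrovirus, 24 h after the change to differentiation medium. The members were chosen by sample title alone: 3 arrays of ER-MyoD RRR at 24 h and 3 arrays of the empty retrovirus at 24 h, 6 of the 30 arrays of the series, read across all 18193 genes measured. ER-MyoD RRR is mouse MyoD fused to the hormone-binding domain of the estrogen receptor, with lysines 99, 102 and 104 replaced so that they can no longer be acetylated, and the empty retrovirus lacked the fusion. All cells, controls included, came from MyoD-/-/Myf5-/- animals. The design text names beta-estradiol, which lets the fusion act, as a supplement of the medium for both fusions, and for the empty retrovirus the labels name the medium only. Whether the control cells received it is thus not stated. Effects of the hormone and of the fusion therefore cannot be told apart in comparisons with the empty retrovirus. The other 24 arrays, 3 a group, held both kinds of cells at 6 and 12 h and, at 0, 6, 12 and 24 h, cells with ER-MyoD wt, the fusion with unchanged lysines. No array of ER-MyoD RRR or of the empty retrovirus at 0 h was analysed here, so differences that existed before the medium change cannot be told apart from later ones. The promoter that drives the fusion is not given in the sources used here. The labels leave unsaid whether replicates came from separate cultures, so a p-value here reflects the spread among these arrays and that spread may be technical.

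MyoD is a basic helix-loop-helix transcription factor that pairs with E proteins, binds E-boxes in regulatory DNA and turns fibroblasts into skeletal muscle cells. It acts in steps: it switches on myogenin and Mef2 factors, which then act with it on the genes of the contractile apparatus, while the cells leave the cell cycle, align and fuse. Acetylation of its lysines by p300 and PCAF is known to raise its activity on muscle promoters. The comparison sets cells given the non-acetylatable fusion against cells given a retrovirus without it.

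Each value below is the deposited signal of a probe set, a linear intensity in arbitrary units whose size can be compared between arrays but not between genes. Differences are on the log2(signal + 16) scale after quantile normalization, given as ER-MyoD RRR minus empty retrovirus with the standard error of a limma fit, and they understate the change of genes with low signal. A gene is said to have risen or fallen where its Benjamini-Hochberg adjusted p over all 18193 genes was under 0.05. The 6 arrays had median signals of 45.0 to 54.0, and each correlated best with an array of its own group (r = 0.959 to 0.973 within groups, 0.919 to 0.932 between them). Their Gapdh 3' to 5' ratios lay between 0.828 and 1.15 and their Actb ratios between 1.16 and 1.65. Among the arrays used for the earlier times, ER-MyoD RRR 6 h replicate 2 stood apart, with ratios of 2.44 and 3.61. Some counts that rest on it are therefore also given without it. Values of single genes and the other counts that use 6 h include it and were not repeated. At 12 h, empty retrovirus replicates 1 and 3 correlated best with an empty retrovirus array of 6 h. Of the same group, replicate 1 had a median signal of 64.1 and replicate 2 had ratios of 1.40 and 2.07. Comparisons at 12 h include these arrays and were not repeated without them.

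Of 10 defining fibroblast markers 9 had a signal above 100 on every ER-MyoD RRR array and 10 on every empty retrovirus array, and 5 of the 10 fell (median log2 difference -0.53). Of 10 defining skeletal muscle markers 9 had a signal above 100 on every ER-MyoD RRR array and 0 on every empty retrovirus array, and 8 rose (median 4.85). The summed signal of the fibroblast markers was 40373 to 48132 in ER-MyoD RRR and 48808 to 59458 in the empty retrovirus arrays, and that of the muscle markers was 18964 to 21797 in ER-MyoD RRR and 291 to 370.4 in the empty retrovirus arrays.

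Myod1 was read first, since the fusion carries its coding sequence. Its signals were 306, 580.4 and 528 in ER-MyoD RRR and 214, 213 and 256 in empty retrovirus arrays, a log2 difference of 1.07 ± 0.35 (adjusted p = 0.0301). The groups did not overlap, but ER-MyoD RRR replicate 1 lay closer to the controls than to its own replicates. The call was lost under 7 of the 16 alternative settings, among them median centring (0.87, adjusted p = 0.127). A second Myod1 probe set differed by only 0.11, but it was dim, with mean signals of 23.2 in ER-MyoD RRR and 17.2 in the empty retrovirus. Myf5 had signals of 201, 254 and 412 in ER-MyoD RRR against 388, 597 and 335 in the empty retrovirus and did not pass (-0.59, adjusted p = 0.159). Whether these probe sets lie within the deleted stretches is not known here, so their signal checks neither deletion.

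At 24 h, ER-MyoD RRR had 1549 genes (8.51%) above and 1898 (10.4%) below the empty retrovirus, 3447 genes or 18.9% in all. Of these, 628 rose at least 2-fold (3.45% of genes tested) and 681 fell at least 2-fold (3.74%). The arrays of the groups did not overlap for 6203 genes (34.1%), and 3340 genes (18.4%) both passed and did not overlap. The median over all genes was 0.03. With median centring in place of quantile normalization 924 genes rose and 1746 fell, so the share of rises among calls was 34.6% there and 44.9% in the reported fit.

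**Figure D1:**
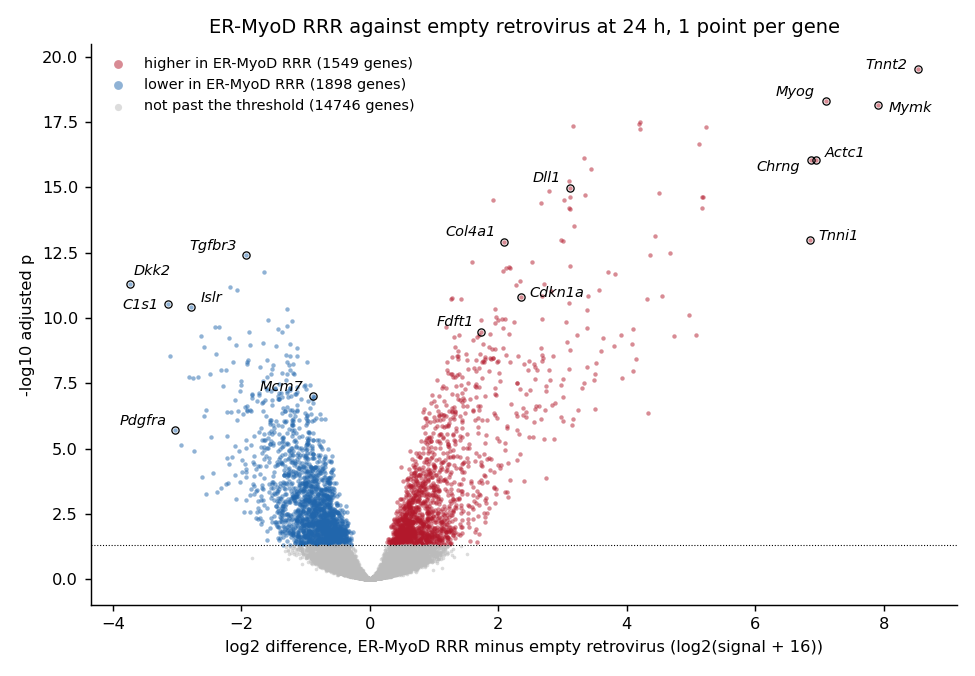
Each point is 1 of 18193 genes, with the log2 difference of ER-MyoD RRR minus empty retrovirus at 24 h on the x axis and -log10 of the adjusted p on the y axis. The dotted line marks an adjusted p of 0.05. Red points are the 1549 genes that rose and blue points the 1898 that fell. The largest rises (Tnnt2 at 8.54) reach further from 0 than the largest falls (Dkk2 at -3.73).

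Counts by list against the empty retrovirus at 24 h are to be read beside the shares over all genes. These were 8.51% higher and 10.4% lower. Counts by list in other comparisons are given with the shares of those comparisons. Of 28 measured myogenic regulators 16 rose and 2 fell, with a median log2 difference of 0.92. Myog, or myogenin, the factor required for terminal differentiation, had signals of 3577, 3594 and 4479.7 in ER-MyoD RRR and 16.7, 12.9 and 15.4 in empty retrovirus arrays. The controls were at the low end of the scale on all 3 arrays, and the groups lay far apart (7.10 ± 0.22, adjusted p = 5.03e-19). In bulk RNA, fewer cells of a kind and less RNA per cell cannot be told apart, here and in every comparison that follows.

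The 300 bases around the start of Myog, 250 before it and 50 after it, are shown because Myog was among the largest rises and its promoter holds E-boxes, the 6-base motif CANNTG that MyoD binds. Capitals mark each E-box. The sequence is from RefSeq (GRCm38.p6, chr1:134289754-134290053, plus strand):
Myog: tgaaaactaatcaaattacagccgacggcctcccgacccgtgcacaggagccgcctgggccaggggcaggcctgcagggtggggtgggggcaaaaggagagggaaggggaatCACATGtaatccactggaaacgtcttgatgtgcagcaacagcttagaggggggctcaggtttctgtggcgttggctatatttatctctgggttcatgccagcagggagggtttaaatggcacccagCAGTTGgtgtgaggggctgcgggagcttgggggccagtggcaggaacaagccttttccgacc
A CACATG lay 138 bases and a CAGTTG 12 bases upstream of the start.

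Mef2a, a MADS-box factor that acts with MyoD, had signals of 3382, 3395 and 3483 in ER-MyoD RRR against 454, 282 and 305 in the empty retrovirus (3.38 ± 0.25, adjusted p = 5.03e-11). Mef2c of the same family rose by 1.36 ± 0.21 (adjusted p = 1.99e-05). Zbtb18, a transcriptional repressor also called RP58, rose by 3.10 ± 0.15, and Hes6, an inhibitor of Hes1, by 2.11 ± 0.16 (adjusted p = 6.28e-15 and 1.12e-10). Rb1, the retinoblastoma protein that holds cells out of S phase, had signals of 1509, 1635 and 1278 in ER-MyoD RRR and 174, 198 and 176 in empty retrovirus arrays (3.10 ± 0.22, adjusted p = 2.73e-11). A second Rb1 probe set differed by 0.11, but its mean signals were at the low end, 5.70 in ER-MyoD RRR and 3.88 in the empty retrovirus. The 2 members that fell were Cdon (-1.10), a surface receptor that promotes myogenesis, and Eya1 (-0.66), a transcriptional cofactor with phosphatase activity.

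Genes of the sarcomere, the repeated contractile unit of muscle, included the largest rise of all genes. Of 53 measured members 25 rose and 2 fell (median 0.87), and 13 members had signals under 50 on all 6 arrays. Tnnt2, the troponin T of embryonic and cardiac muscle, had signals of 10767, 10159.7 and 11000.4 in ER-MyoD RRR against 18.6, 8.72 and 12.5 in the empty retrovirus (8.54 ± 0.23, adjusted p = 3.11e-20). Actc1, the alpha actin of embryonic muscle, had 5986, 5791 and 6067 in ER-MyoD RRR against 22.0, 55.3 and 35.9 in the empty retrovirus (6.94 ± 0.28, adjusted p = 9.28e-17). Every ER-MyoD RRR array was above every control array for both genes, and the control signals were near the bottom of the scale.

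Both slow and fast isoforms of thin-filament genes were among the rises. Tnni1, the slow troponin I, had signals of 2873, 2519 and 3062 in ER-MyoD RRR against 23.5, 6.75 and 6.15 in the empty retrovirus (6.85 ± 0.38, adjusted p = 1.06e-13), and Tnnc1, the slow and cardiac troponin C, had 1685, 1809 and 1811 in ER-MyoD RRR against 95.2, 108 and 84.2 in the empty retrovirus (4.19 ± 0.15, adjusted p = 3.80e-18). The fast troponin T, Tnnt3, rose by 4.73 ± 0.40 and skeletal alpha actin, Acta1, by 4.97 ± 0.38 (adjusted p = 4.98e-10 and 7.61e-11). No array of one group reached the other for these 4 genes.

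Thick-filament genes were divided. Mylpf, the fast regulatory myosin light chain, had signals of 1054, 1034 and 1298 in ER-MyoD RRR and 50.3, 9.81 and 15.1 in empty retrovirus arrays (5.08 ± 0.42, adjusted p = 4.49e-10). Myh3, the embryonic myosin heavy chain, rose by 3.50 ± 0.42 (adjusted p = 3.11e-07). Unc45b, the chaperone that folds muscle myosin, had 770.5, 651 and 546 in ER-MyoD RRR against 2.15, 1.54 and 6.07 in the empty retrovirus (5.18 ± 0.26, adjusted p = 6.28e-15), and Klhl41, a kelch protein of the sarcomere, rose by 5.19 ± 0.25 (adjusted p = 2.45e-15). The light chains Myl1 and Myl4 and the heavy chain Myh1 also rose (4.14, 2.43 and 1.86, adjusted p = 3.88e-09, 8.02e-08 and 2.19e-05). The heavy chains Myh2, Myh4, Myh7 and Myh8 did not pass (0.14, 0.30, -0.32 and -0.29), nor did the light chains Myl2 and Myl3 (0.10 and -0.63) or the myosin-binding proteins Mybpc1, Mybpc2 and Mybpc3. The 2 members of the sarcomere list that fell were Tpm1 (-1.21), a tropomyosin that non-muscle cells also make, and Myl6b (-0.84), an alkali myosin light chain. Genes named beyond the 5 smallest p-values of a list, such as these, were chosen after their values were seen.

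Markers of later muscle were uneven between probe sets. Ckm, the muscle creatine kinase, had signals of 134, 140.0 and 169 in ER-MyoD RRR against 119.5, 78.6 and 85.3 in the empty retrovirus and did not pass (0.60 ± 0.25, adjusted p = 0.0988), while its second probe set differed by 2.90 (adjusted p = 1.57e-06 over all probe sets). Des, the intermediate filament desmin, had 86.8, 71.0 and 67.1 in ER-MyoD RRR against 62.8, 57.5 and 43.3 in the empty retrovirus and did not pass (0.30 ± 0.30, adjusted p = 0.567), while its second probe set differed by 1.46 (adjusted p = 0.00855 over all probe sets).

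The acetylcholine receptor receives the signal of the motor nerve at the neuromuscular junction. Of 16 measured genes of the receptor and junction 8 rose and 0 fell (median 0.73). Chrng, the gamma subunit of the fetal receptor, had signals of 2449, 2202 and 2711 in ER-MyoD RRR and 3.54, 14.1 and 4.21 in empty retrovirus arrays (6.86 ± 0.28, adjusted p = 9.28e-17). Chrna1, the ligand-binding alpha subunit, had 863, 665 and 788 in ER-MyoD RRR against 11.6, 39.4 and 17.2 in the empty retrovirus (4.55 ± 0.32, adjusted p = 1.47e-11), and Chrnd, the delta subunit, had 73.1, 173 and 60.3 in ER-MyoD RRR against 5.59, 4.93 and 7.06 in the empty retrovirus (2.19 ± 0.26, adjusted p = 2.00e-07). Chrnb1, the beta subunit, rose by 0.90, and Chrne, the epsilon subunit of the adult receptor, did not pass (0.32, adjusted p = 0.286). The groups did not overlap for Chrng, Chrna1 or Chrnd, and the ER-MyoD RRR arrays spread most for Chrnd, with replicate 2 the highest. Lrp4, the agrin receptor of the muscle membrane, rose by 3.57 ± 0.24 and Erbb3, a neuregulin receptor, by 2.33 ± 0.25 (adjusted p = 8.72e-12 and 5.44e-08).

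The promoters of Chrng and Chrna1, read from RefSeq over the same window, are shown beside that of Hrc, the calcium-handling gene with the smallest p, because all 3 hold the E-box CAGCTG. Capitals again mark the E-boxes found (GRCm38.p6, chr1:87205561-87205860 plus strand, chr2:73580289-73580588 minus strand and chr7:45335019-45335318 plus strand):
Chrng: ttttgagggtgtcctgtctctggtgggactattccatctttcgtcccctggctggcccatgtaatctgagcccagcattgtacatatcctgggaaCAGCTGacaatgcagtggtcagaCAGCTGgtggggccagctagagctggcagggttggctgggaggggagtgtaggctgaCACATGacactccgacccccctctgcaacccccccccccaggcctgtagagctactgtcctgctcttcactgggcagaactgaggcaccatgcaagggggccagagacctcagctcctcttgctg
Chrna1: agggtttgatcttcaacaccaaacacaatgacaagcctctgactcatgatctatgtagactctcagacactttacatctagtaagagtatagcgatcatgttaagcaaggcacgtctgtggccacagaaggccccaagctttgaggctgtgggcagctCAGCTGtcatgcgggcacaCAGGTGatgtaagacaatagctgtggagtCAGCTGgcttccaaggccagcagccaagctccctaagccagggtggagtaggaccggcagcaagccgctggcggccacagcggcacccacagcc
Hrc: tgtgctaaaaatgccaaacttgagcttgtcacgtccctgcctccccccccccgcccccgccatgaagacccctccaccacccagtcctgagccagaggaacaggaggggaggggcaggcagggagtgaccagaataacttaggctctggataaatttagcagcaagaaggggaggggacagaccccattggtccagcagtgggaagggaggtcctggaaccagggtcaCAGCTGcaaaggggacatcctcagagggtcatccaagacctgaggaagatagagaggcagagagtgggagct
CAGCTG lay 155 and 132 bases upstream of the Chrng start, 92 and 44 bases upstream of the Chrna1 start and 22 bases upstream of the Hrc start. Chrng also held a CACATG at 75 bases and Chrna1 a CAGGTG at 73 bases.

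E-boxes were counted on both strands in all such windows, as a description without a test. CAGCTG was in 163 of 701 windows (23.3%) of genes that rose at least 2-fold, in 121 of 684 (17.7%) of genes that fell at least 2-fold and in 16.4% of the windows of all genes tested. CACCTG or its reverse complement CAGGTG was in 20.3%, 16.7% and 20% of the same 3 sets. Any CANNTG, which includes both motifs, was in 72.5%, 64.2% and 67.5%. A promoter entry was found for 493 of the 628 genes that rose and 518 of the 681 that fell at least 2-fold.

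Genes of calcium handling and excitation-contraction coupling, which link the nerve signal to contraction, rose in 13 of 29 cases and fell in 1 (median 0.70). Hrc, a calcium-binding protein of the sarcoplasmic reticulum, had signals of 2390.0, 1812 and 2617 in ER-MyoD RRR against 124, 86.9 and 90.8 in the empty retrovirus (4.50 ± 0.21, adjusted p = 1.71e-15). Stac3, which couples the calcium channel to the release channel, had 986, 1274 and 619 in ER-MyoD RRR against 29.2, 101 and 29.1 in the empty retrovirus (4.08 ± 0.35, adjusted p = 1.00e-09). Pvalb, the calcium buffer parvalbumin, rose by 3.40 ± 0.24, Srl, sarcalumenin, by 3.31 ± 0.35 and Cacna1s, the voltage sensor of the muscle membrane, by 2.58 ± 0.30 (adjusted p = 1.42e-11, 4.61e-08 and 2.39e-07). The groups did not overlap for any of these 5 genes, although 1 control array of Cacna1s and of Stac3 lay well above the other two. Asph, which gives junctin and other products, was the member that fell (-1.30).

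Muscle energy metabolism showed 12 rises and 0 falls among 25 measured genes (median 0.48). Eno3, the muscle enolase, had signals of 1221, 1062 and 969.9 in ER-MyoD RRR and 103, 144 and 149 in empty retrovirus arrays (3.11 ± 0.15, adjusted p = 2.45e-15). Cox8b, a muscle isoform of a cytochrome oxidase subunit, had 795, 720.3 and 682 in ER-MyoD RRR against 12.6, 37.0 and 26.4 in the empty retrovirus (4.36 ± 0.26, adjusted p = 3.95e-13). Pgam2, the muscle phosphoglycerate mutase, rose by 3.92 ± 0.33, Cox6a2 by 2.74 ± 0.29 and the brain-type creatine kinase Ckb by 2.66 ± 0.13 (adjusted p = 4.66e-10, 4.08e-08 and 4.15e-15). Idi2, the muscle form of isopentenyl diphosphate isomerase, belonged to no list and was among the 12 largest rises, with 701, 640.2 and 624 in ER-MyoD RRR against 3.44, 2.10 and 1.85 in the empty retrovirus (5.24 ± 0.19, adjusted p = 5.09e-18).

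Adhesion and fusion genes split evenly, with 7 of 30 higher and 7 lower (median 0.20). Mymk, or myomaker, the membrane protein that drives myoblast fusion, had signals of 5314, 6003 and 6579 in ER-MyoD RRR against 28.9, 3.43 and 5.05 in the empty retrovirus (7.91 ± 0.26, adjusted p = 7.27e-19). Megf10, an adhesion receptor of muscle progenitors, had 1327, 1058 and 1229 in ER-MyoD RRR against 7.91, 46.0 and 17.8 in the empty retrovirus (5.18 ± 0.25, adjusted p = 2.45e-15). Itga7, the laminin-binding integrin of muscle, rose by 3.02 ± 0.15 and Cdh15, or M-cadherin, by 2.97 ± 0.17 (adjusted p = 3.12e-15 and 1.06e-13). The second fusion protein, Mymx or myomerger, averaged 463 ± 43.9 in ER-MyoD RRR and 20.9 ± 24.7 in empty retrovirus arrays (SD, n = 3 each, 3.93 ± 0.40, adjusted p = 1.91e-08). The 7 members that fell were Cdon (-1.10), Myof (-0.96), Dock1 (-0.91), Cd9 (-0.85), Kirrel (-0.74), Cd81 (-0.66) and Cdh2 (-0.58).

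The dystrophin complex, which ties the cytoskeleton to the matrix, had 7 rises and 3 falls among 23 genes (median 0.28), but only 4 rises without ER-MyoD RRR replicate 1 and likewise 4 without empty retrovirus replicate 3. Ank1, the ankyrin whose small form anchors the sarcoplasmic reticulum, rose by 1.85 ± 0.18 and Dmpk, the myotonic dystrophy kinase, by 1.70 ± 0.21 (adjusted p = 1.10e-08 and 3.48e-07). Utrn, utrophin, the non-muscle counterpart of dystrophin, had signals of 656, 451 and 463 in ER-MyoD RRR against 828, 1092 and 873 in the empty retrovirus and fell (-0.86 ± 0.16, adjusted p = 0.000168).

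**Figure D2:**
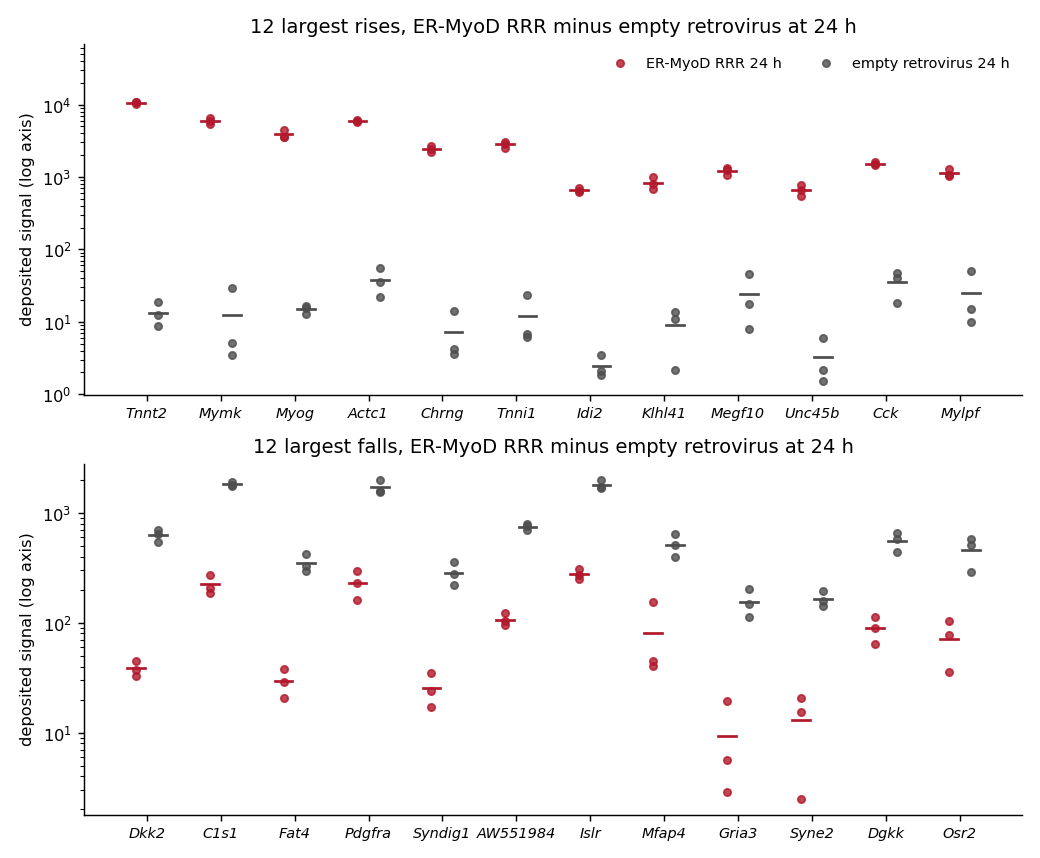
Deposited signal per array (log axis) of the 12 largest rises (upper panel) and 12 largest falls (lower panel) among genes that passed and did not overlap. Red points are the 3 ER-MyoD RRR arrays and grey points the 3 empty retrovirus arrays at 24 h, and bars are means. In the upper panel the control signals lie near the bottom of the scale, with no control array of Tnnt2 above 18.6, while in the lower panel most genes keep a measurable signal in ER-MyoD RRR, as C1s1 does at 187 or more.

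The largest fall was that of Dkk2, a secreted Wnt antagonist, which had signals of 45.1, 32.9 and 37.6 in ER-MyoD RRR and 639.5, 541 and 699.6 in empty retrovirus arrays (-3.73 ± 0.25, adjusted p = 5.05e-12). C1s1, a protease of the complement pathway, had 209.5, 274 and 187 in ER-MyoD RRR against 1916, 1813 and 1761 in the empty retrovirus (-3.15 ± 0.23, adjusted p = 2.84e-11). Fat4, a giant cadherin of planar polarity, had 29.0, 37.9 and 20.8 in ER-MyoD RRR against 297, 426 and 326 in the empty retrovirus (-3.11 ± 0.28, adjusted p = 2.84e-09). All 3 kept their groups well apart.

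The 12 largest falls also held Gria3 and Syne2. Gria3, a glutamate receptor subunit, had 2.90, 19.3 and 5.65 in ER-MyoD RRR against 204, 113 and 148 in the empty retrovirus (-2.73 ± 0.41, adjusted p = 1.18e-05), and Syne2, the nuclear envelope protein nesprin-2, had 15.5, 20.7 and 2.50 in ER-MyoD RRR against 194, 159 and 143 in the empty retrovirus (-2.67 ± 0.27, adjusted p = 1.88e-08). Syndig1, a membrane protein of synapses, differed by -2.94, Dgkk, a diacylglycerol kinase, by -2.64 and AW551984, whose role is not named here, by -2.82. ER-MyoD RRR signals of Gria3 and Syne2 were at the low end on all 3 arrays, so their differences are the more compressed by the added 16.

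Fibroblast and progenitor markers fell in 15 of 33 cases and rose in 2 (median -0.47). Pdgfra, the platelet-derived growth factor receptor of mesenchymal progenitors, had signals of 295, 161 and 230.0 in ER-MyoD RRR and 1569, 1989.9 and 1563 in empty retrovirus arrays (-3.03 ± 0.41, adjusted p = 1.93e-06). Its 2 other probe sets differed by -0.98 and -0.73. Islr, a stromal surface protein also called meflin, had 275, 253 and 309 in ER-MyoD RRR against 1705, 1988 and 1733 in the empty retrovirus (-2.78 ± 0.20, adjusted p = 3.87e-11), and Mfap4, a protein of elastic fibres, had 155, 40.8 and 44.8 in ER-MyoD RRR against 398, 638 and 511 in the empty retrovirus (-2.75 ± 0.28, adjusted p = 2.07e-08). The groups stayed apart for each, and for Mfap4 ER-MyoD RRR replicate 1 was several times above its other two replicates.

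More members of the list fell by smaller amounts. Osr2, a transcription factor of connective tissue, fell (-2.61 ± 0.47, adjusted p = 0.000126), as did Efemp1 and Fbln5, both fibulins of the elastic matrix (-2.49 ± 0.25 and -1.18 ± 0.12, adjusted p = 1.35e-08 and 1.36e-08). Widely used fibroblast markers changed by less: Col1a1 differed by -0.77, Fn1 by -0.65 and Prrx1 by -0.48, all past the threshold, whereas Vim (-0.37, adjusted p = 0.0787), Col1a2 (-0.21, adjusted p = 0.267), Col3a1 (-0.23, adjusted p = 0.177) and Thy1 (0.10, adjusted p = 0.784) did not pass. Fap, the fibroblast activation protein, went the other way, with 509, 474 and 461 in ER-MyoD RRR against 107, 127 and 131 in the empty retrovirus (2.01 ± 0.20, adjusted p = 1.30e-08).

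Extracellular matrix genes moved in both directions, 8 higher and 15 lower of 52 (median -0.24). Col4a1 and Col4a2, the main chains of basement membrane collagen and neighbours that share a promoter, rose together. Col4a1 had signals of 6369.8, 5287 and 5651 in ER-MyoD RRR against 1292, 1163 and 1306 in the empty retrovirus (2.09 ± 0.12, adjusted p = 1.19e-13) and Col4a2 had 2623, 2323 and 2022 in ER-MyoD RRR against 739.6, 501 and 717 in the empty retrovirus (1.87 ± 0.15, adjusted p = 4.24e-10). Nid1, nidogen of the same basement membrane, fell, with 1046, 907 and 828 in ER-MyoD RRR against 2580.1, 2699 and 2699 in the empty retrovirus (-1.58 ± 0.12, adjusted p = 1.25e-10). Postn, or periostin, and Lox, which crosslinks collagen, differed by -1.13 ± 0.12 and -1.13 ± 0.13 (adjusted p = 4.50e-08 and 2.22e-07).

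Matrix proteases and their inhibitors had 3 rises and 5 falls among 25 genes (median -0.11). These were 12% higher and 20% lower against 8.51% and 10.4% of all genes, so the share of rises was close to that over all genes. Plat, the tissue plasminogen activator, fell (-1.86 ± 0.16, adjusted p = 1.10e-09), as did Mmp2, or gelatinase A (-0.89 ± 0.13, adjusted p = 4.80e-06), and Ctsk, cathepsin K (-1.32 ± 0.17, adjusted p = 9.18e-07). Adamts4, an aggrecanase, had 813, 647 and 568 in ER-MyoD RRR against 299, 265 and 301 in the empty retrovirus and rose (1.29 ± 0.19, adjusted p = 1.13e-05). The 6 arrays kept the groups apart for each of these 4 genes.

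Among chemokines, cytokines and complement 9 of 26 fell and 2 rose (median -0.29), and the 2 rises were Il6 and Ccl8 (0.72). Ccl2, the monocyte chemokine, had signals of 2730.4, 2622 and 3110.0 in ER-MyoD RRR and 4504, 5829 and 5497 in empty retrovirus arrays (-0.94 ± 0.11, adjusted p = 2.84e-07), and C1ra, the partner protease of C1s1, had 307, 187 and 156 in ER-MyoD RRR against 930.2, 847 and 991 in the empty retrovirus (-2.20 ± 0.19, adjusted p = 6.09e-10). Csf1, the macrophage growth factor, differed by -1.53 ± 0.18 (adjusted p = 2.19e-07). Il6 had 118, 92.5 and 108 in ER-MyoD RRR against 2.68, 11.5 and 3.62 in the empty retrovirus and rose (2.38 ± 0.30, adjusted p = 5.28e-07), with control signals near the bottom of the scale.

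Growth factors and their binding proteins were even, 9 higher and 9 lower of 37 (median 0.14). Igfbp7 had 1209, 1119.8 and 1505 in ER-MyoD RRR against 343, 328 and 397 in the empty retrovirus and rose (1.91 ± 0.18, adjusted p = 3.28e-09), and Igf2, a growth factor that muscle cells make, differed by 1.52. Fgf7, a ligand made by mesenchyme, differed by -1.36 ± 0.15, its family's receptor Fgfr1 by -1.66 ± 0.20 and Kitl, the ligand of Kit, by -1.61 ± 0.20 (adjusted p = 1.04e-07, 3.79e-07 and 5.70e-07). Each of these genes passed with no overlap between the groups.

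In the TGF-beta, BMP and activin pathway 10 of 32 genes fell and 3 rose (median -0.24). Tgfbr3, the co-receptor betaglycan, had signals of 689, 812 and 677 in ER-MyoD RRR against 2532, 2896 and 2593 in the empty retrovirus, the smallest p among falls of the listed genes (-1.93 ± 0.12, adjusted p = 3.96e-13). Ltbp1, which stores TGF-beta in the matrix, differed by -1.51 ± 0.15, and Bmp1, a procollagen protease, by -2.01 ± 0.21 (adjusted p = 6.38e-09 and 2.58e-08). Fst, or follistatin, which blocks myostatin and activins, had 389, 289 and 335 in ER-MyoD RRR against 93.5, 95.9 and 71.2 in the empty retrovirus and rose (1.88 ± 0.30, adjusted p = 2.41e-05). Among 31 Wnt ligands and antagonists only 2 rose and 3 fell, a share close to the 8.51% and 10.4% over all genes, and besides Dkk2 they included Wnt9a (1.34 ± 0.22, adjusted p = 5.66e-05).

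Notch genes, which restrain myogenic differentiation when active, leaned upward: of 32 genes of the Notch pathway and of Id or Twist inhibitors 12 rose and 3 fell (median 0.59), and 7 rose under median centring. Dll1, a Notch ligand, had signals of 1133, 1160.1 and 1075 in ER-MyoD RRR and 124, 169.8 and 116 in empty retrovirus arrays (3.12 ± 0.14, adjusted p = 1.06e-15). Hey1, a Notch target, had 229.7, 189.8 and 192 in ER-MyoD RRR against 13.3, 20.9 and 10.4 in the empty retrovirus (2.86 ± 0.26, adjusted p = 2.98e-09), and the receptor Notch1 had 409, 427 and 373 in ER-MyoD RRR against 129, 156 and 82.8 in the empty retrovirus (1.75 ± 0.17, adjusted p = 4.71e-09). Ligand, receptor and target were higher in every ER-MyoD RRR array than in every control array. Snai1, a repressor that competes for E-boxes, rose by 1.18 ± 0.20 (adjusted p = 7.16e-05), and Id2 and Id3, which sequester E proteins, differed by 1.81 and 0.75. Twist1 and Twist2, inhibitors of MyoD, were among the 3 that fell (-1.10 and -0.51).

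Genes of cell cycle exit rose in 8 of 20 cases and fell in 5 (median 0.21), with 5 rises under median centring. The 5 that fell were Trp53inp1 (-1.24), Cdkn2a (-1.02), Gas2 (-0.95), Rbl1 (-0.77) and Rbl2 (-0.66). Cdkn1a, the inhibitor p21 that MyoD is known to induce, had signals of 5359.6, 4537 and 5119.9 in ER-MyoD RRR against 781, 1259.7 and 915 in the empty retrovirus (2.35 ± 0.17, adjusted p = 1.63e-11). Gadd45g, a stress and growth arrest protein, had 558, 649 and 504 in ER-MyoD RRR against 164, 169 and 214 in the empty retrovirus (1.73 ± 0.13, adjusted p = 1.25e-10), and Cdkn1c, the inhibitor p57, had 29.4, 66.2 and 58.2 in ER-MyoD RRR against 7.54, 3.34 and 6.83 in the empty retrovirus (1.44 ± 0.28, adjusted p = 0.000415). The groups did not overlap for these 3 genes. Ccnd3, the D-type cyclin of differentiating muscle, rose by only 0.62 ± 0.19 (adjusted p = 0.0171), and this call was lost under median centring (adjusted p = 0.165) and without replicate 2 of either group.

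Genes of DNA replication and mitosis were lower in 21 of 54 cases and higher in 2, Mcm2 and Rrm2 (0.86 and 0.58), with a median of -0.34, and median centring gave 20 lower and 0 higher. Mcm7 and Mcm6, parts of the replicative helicase, had signals of 900.0, 755 and 763 in ER-MyoD RRR against 1320.0, 1527 and 1498 in the empty retrovirus and of 386, 414 and 321 in ER-MyoD RRR against 695, 648 and 882 in the empty retrovirus. Both fell (-0.89 ± 0.10 and -0.98 ± 0.12, adjusted p = 9.63e-08 and 5.51e-07). Pole, the catalytic subunit of a leading-strand polymerase, differed by -1.91 ± 0.23 and Top2a, the topoisomerase of mitosis, by -0.97 ± 0.14 (adjusted p = 3.70e-07 and 3.77e-06). Cdt1, the licensing factor, differed by -0.96 ± 0.13 on the probe set used (adjusted p = 4.48e-06), while a dim probe set of the same gene differed by 0.81 in the opposite direction.

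Of 17 p53 targets 7 fell and only Cdkn1a rose (median -0.67), and 4 fell without ER-MyoD RRR replicate 1. Sesn2, a stress-induced antioxidant protein, had signals of 144, 206 and 72.3 in ER-MyoD RRR against 323, 328 and 466 in the empty retrovirus (-1.45 ± 0.24, adjusted p = 3.34e-05), and Zmat3, an RNA-binding target of p53, had 599, 464 and 428 in ER-MyoD RRR against 1113, 1101 and 1119.7 in the empty retrovirus (-1.22 ± 0.16, adjusted p = 1.98e-06). No ER-MyoD RRR array reached the controls for either.

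Genes of the unfolded protein and integrated stress response fell in 8 of 25 cases and rose in 1 (median -0.29), with 5 falls under median centring. Ddit3, the stress factor CHOP, had signals of 481, 363 and 517 in ER-MyoD RRR and 1226, 1308 and 1221 in empty retrovirus arrays (-1.55 ± 0.20, adjusted p = 7.88e-07). Chac1, which degrades glutathione, differed by -1.55 ± 0.20 and Trib3, a pseudokinase induced by ATF4 and CHOP, by -1.74 ± 0.29 (adjusted p = 1.15e-06 and 4.71e-05). The empty retrovirus arrays were the higher ones throughout these 3 genes.

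Interferon-stimulated genes fell in 10 of 28 cases and rose in 1 (median -0.47). Ifit3, an antiviral protein, had signals of 79.8, 31.7 and 14.0 in ER-MyoD RRR against 231, 273 and 261 in the empty retrovirus (-2.44 ± 0.42, adjusted p = 8.44e-05). Gbp2 and Gbp3, guanylate-binding proteins, had 36.0, 33.1 and 79.5 in ER-MyoD RRR against 171, 154 and 132 in the empty retrovirus and 29.4, 26.6 and 27.8 in ER-MyoD RRR against 89.9, 117 and 101 in the empty retrovirus (-1.46 ± 0.33 and -1.45 ± 0.29, adjusted p = 0.00163 and 0.000417). Every empty retrovirus array exceeded every ER-MyoD RRR array for these 3 genes. The single rise was Psmb8 (0.87), an inducible proteasome subunit.

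Cholesterol synthesis and uptake rose in 10 of 20 cases and fell in 0 (median 0.58). Fdft1, squalene synthase, had signals of 3429.7, 4074 and 3801 in ER-MyoD RRR and 954, 993 and 1421 in empty retrovirus arrays (1.73 ± 0.14, adjusted p = 3.33e-10). Insig1, a sterol sensor that retains SREBPs, had 1498, 1541 and 1712 in ER-MyoD RRR against 552, 559 and 500.5 in the empty retrovirus (1.61 ± 0.19, adjusted p = 3.38e-07), and Lss, lanosterol synthase, rose by 1.37 ± 0.13 (adjusted p = 3.81e-09). The groups did not overlap for these enzymes and the sensor. Fatty acid synthesis was mixed, with 5 of 19 higher and 3 lower (median 0.11) and 2 higher under median centring: Acsl3, an acyl-CoA synthetase, rose by 1.03 ± 0.20 and Fads1, a desaturase, differed by -0.71 ± 0.14 (adjusted p = 0.000357 and 0.000484).

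Hox genes, which keep a memory of body position, fell in 7 of 32 cases and rose in 1, Hoxb7 (0.98), with a median of -0.09. Hoxb5 had signals of 12.2, 11.3 and 14.4 in ER-MyoD RRR against 134, 196 and 153 in the empty retrovirus (-2.59 ± 0.32, adjusted p = 5.73e-07) and Hoxb3 had 138, 192 and 197 in ER-MyoD RRR against 588, 920.0 and 551 in the empty retrovirus (-1.94 ± 0.23, adjusted p = 2.50e-07). Hoxb4 differed by -1.02 ± 0.16 and Hoxb2 by -0.87 ± 0.21 (adjusted p = 1.92e-05 and 0.00337), and with Hoxb6 (-1.32) 5 of the 7 falls belonged to the Hoxb cluster. Hoxc8 differed by -1.52 ± 0.29 (adjusted p = 0.000234).

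The enzymes and partners of MyoD acetylation gave 4 rises and 6 falls among 29 genes (median -0.13), or 13.8% higher and 20.7% lower against 8.51% and 10.4% of all genes. Without empty retrovirus replicate 1 the count that fell was 3. Hdac11, a deacetylase, had signals of 754, 485 and 557 in ER-MyoD RRR against 128, 206 and 122 in the empty retrovirus (2.03 ± 0.21, adjusted p = 2.67e-08), and Smarcd3, the BAF60c subunit that recruits SWI/SNF to MyoD, had 651, 591 and 754 in ER-MyoD RRR against 320.4, 321 and 328 in the empty retrovirus (1.10 ± 0.16, adjusted p = 9.86e-06). Hdac7, a class II deacetylase, and Smarca2, an ATPase of SWI/SNF, differed by -1.35 ± 0.19 and -0.96 ± 0.17 (adjusted p = 3.98e-06 and 0.000133). Of 15 estrogen-responsive genes 2 rose (13.3%, against 8.51% of all genes) and 0 fell. The smaller rise was that of Tff1 (0.68). The larger was that of Esr1 (1.94 ± 0.37, adjusted p = 0.000286), which encodes the receptor whose domain the fusion carries. Other Esr1 probe sets differed by 0.34 and 0.65 and did not pass (adjusted p = 0.711 and 0.221 over all probe sets). They were dim, with mean signals of 48.1 and 35.6 in ER-MyoD RRR and 30.9 and 14.6 in the empty retrovirus. Whether any of the Esr1 probe sets reads the domain in the fusion is not known here.

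Serum response and immediate early genes split 7 to 6 among 31, and the rises numbered 1 under median centring and 2 without ER-MyoD RRR replicate 1. Myc, a driver of growth, had signals of 123, 122 and 56.7 in ER-MyoD RRR and 364, 194 and 273 in empty retrovirus arrays and fell (-1.42 ± 0.31, adjusted p = 0.00105). Smooth muscle markers had 4 rises and 2 falls among 18, or 22.2% higher and 11.1% lower against 8.51% and 10.4% of all genes. The 2 best-known ones differed little at 24 h: Acta2, smooth muscle actin, had 6404, 6259 and 6774 in ER-MyoD RRR against 4173, 5136 and 4768 in the empty retrovirus (0.36 ± 0.10, adjusted p = 0.00976), and Tagln, or SM22, had 350.0, 346 and 326 in ER-MyoD RRR against 528, 436 and 580.3 in the empty retrovirus (-0.56 ± 0.17, adjusted p = 0.0147). Both calls were lost under some alternatives, with an adjusted p of 0.301 for Acta2 under median centring and of 0.0779 for Tagln without empty retrovirus replicate 3.

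Of 13 adipocyte, 15 chondrocyte and osteoblast and 12 epithelial markers 0 passed in the limma fit. One cardiac marker of 17 rose, Gata4 (0.81), 1 neuronal or glial marker of 17 fell, Gap43 (-1.28), 2 of 12 macrophage and blood markers rose, Csf1r and Itgam (1.13 and 1.19), and 2 of 12 endothelial markers rose, Pecam1 and Esam (0.68 and 0.91). The macrophage and endothelial rises were each 16.7% of their list, above the 8.51% of all genes that rose, while the cardiac rise and the neuronal fall were each 5.88% of theirs. Of these only the Csf1r call held in all alternatives run. The summed signal of the macrophage and blood list was 841 to 936 in ER-MyoD RRR and 525 to 817 in the empty retrovirus, and that of the endothelial list 707 to 894 in ER-MyoD RRR and 468 to 639 in the empty retrovirus. The part of such cells in the other results was not tested.

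**Figure D3:**
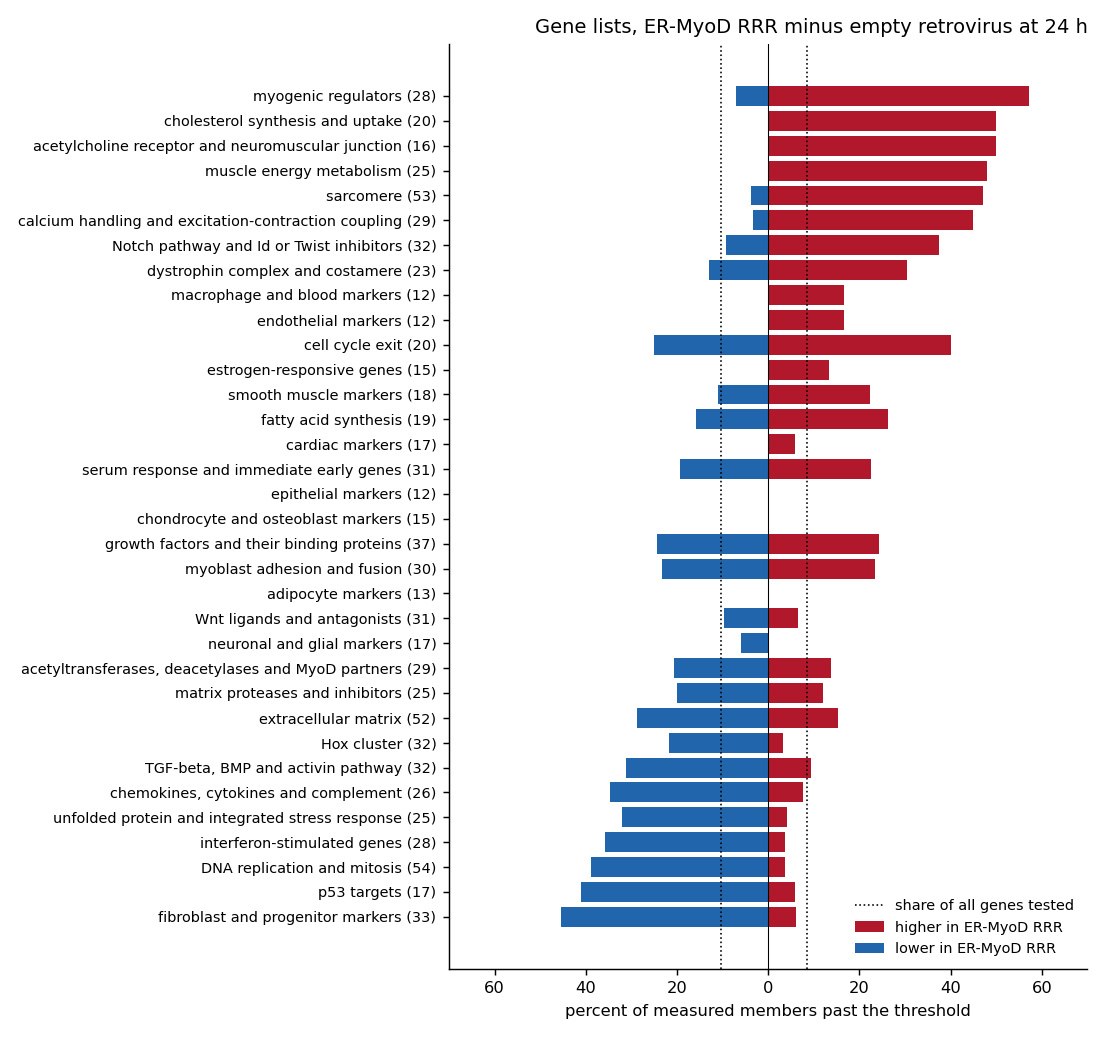
Percent of the measured members of each of 34 gene lists that rose (red, to the right) or fell (blue, to the left) in ER-MyoD RRR relative to the empty retrovirus at 24 h, with the number measured in brackets. Dotted lines mark the shares over all genes tested, 8.51% higher and 10.4% lower. Muscle lists and cholesterol synthesis stand at the top, with 57.1% of the myogenic regulators higher, and fibroblast markers at the bottom, with 45.5% lower.

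The difference between the groups was then followed over the 3 times at which both were measured. Against the empty retrovirus, 1306 genes (7.18%) were higher and 1199 (6.59%) lower in ER-MyoD RRR at 6 h, and 922 (5.07%) were higher and 897 (4.93%) lower at 12 h. Without ER-MyoD RRR 6 h replicate 2, the counts at 6 h were 1140 and 1268. Of the 1549 genes higher at 24 h, 448 were also higher at 6 h (28.9% of the 24 h genes and 34.3% of the 6 h genes), 480 at 12 h (31.0% and 52.1%) and 941 (60.7%) at neither. Of the 1898 genes lower at 24 h, 512 were also lower at 6 h (27.0% and 42.7%), 538 at 12 h (28.3% and 60%) and 1159 (61.1%) at neither. An opposite call at 6 h was found for 61 of the higher and 127 of the lower genes.

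Whether the difference itself changed between 6 and 24 h was tested as an interaction: it moved up for 819 genes (4.5%) and down for 1064 (5.85%), or 870 and 988 without ER-MyoD RRR 6 h replicate 2. Median centring gave 367 up and 1184 down, a share of upward changes of 23.7% against 43.5%, with the median of all genes at -0.15. Within one group, 2003 genes (11%) rose and 2335 (12.8%) fell between 6 and 24 h in ER-MyoD RRR, and 1466 (8.06%) rose and 1392 (7.65%) fell in the empty retrovirus. Without ER-MyoD RRR 6 h replicate 2 the counts in ER-MyoD RRR were 1997 and 2171. Both groups therefore moved, and a difference at 24 h can come from either.

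Several leading muscle genes rose late in ER-MyoD RRR. In the order 6, 12 and 24 h, mean signals of Myog were 9.47, 158 and 3884 with ER-MyoD RRR and 10.7, 7.15 and 15 in the empty retrovirus, so that the difference changed by 7.08 ± 0.32 between 6 and 24 h (adjusted p = 9.26e-15). Chrng had 13.7, 170.2 and 2454 in ER-MyoD RRR against 5.87, 8.24 and 7.29 in the empty retrovirus (6.38 ± 0.40, adjusted p = 9.02e-12). Tnnt2 was already apart at 6 h, with 1388, 3501 and 10642 in ER-MyoD RRR against 29.1, 25.2 and 13.3 in the empty retrovirus (3.53 ± 0.33, adjusted p = 2.09e-08). Mylpf and Hrc did not pass against the control at 6 or 12 h, Mylpf with 44.1, 37.5 and 1129 in ER-MyoD RRR against 50.9, 65.6 and 25.1 in the empty retrovirus, and Hrc with 113, 112 and 2273 in ER-MyoD RRR against 126, 111 and 101 in the empty retrovirus.

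Other late rises had differences near 0 at 6 h. The log2 difference of Idi2 was 0.06, 2.30 and 5.24 at 6, 12 and 24 h, that of Unc45b 0.11, 0.29 and 5.18, and that of Klhl41 0.22, 1.64 and 5.19. Actc1 parted early and widened, with 2.23, 4.05 and 6.94. Of the sarcomere list 8 members were higher at 6 h, 10 at 12 h and 25 at 24 h. None was lower at 6 or 12 h in the limma fit. Over all genes, 7.18% were higher at 6 h, 5.07% at 12 h and 8.51% at 24 h. The shares lower were 6.59% at 6 h and 4.93% at 12 h.

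The smooth muscle genes Tagln and Acta2 ran the other way. Tagln averaged 4124, 1763 and 340.4 with ER-MyoD RRR and 246, 219 and 515 in the empty retrovirus, and its difference of 3.87 at 6 h became -0.56 at 24 h (-4.43 ± 0.23, adjusted p = 2.18e-13), the largest downward change among genes past both thresholds. Acta2 averaged 8872, 6248 and 6479 in ER-MyoD RRR against 1074, 1174 and 4692 in the empty retrovirus (-2.47 ± 0.14, adjusted p = 1.54e-12), where the control moved most. Between 6 and 24 h Tagln changed by -3.35 in ER-MyoD RRR and 1.09 in the empty retrovirus, and Acta2 by -0.30 and 2.16, all 4 past the threshold.

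Several stromal genes parted while the control rose. Islr averaged 45.5, 57.2 and 279 in ER-MyoD RRR and 49.6, 86.1 and 1809 in the empty retrovirus, higher at 24 h than at 6 h in both groups (adjusted p = 2.53e-09 and 3.32e-16). Lrrc15, a surface protein of activated fibroblasts, averaged 643, 492 and 293 in ER-MyoD RRR against 172, 284 and 907 in the empty retrovirus, and Steap4, a metalloreductase, 112, 158 and 131 in ER-MyoD RRR against 21.3, 70.1 and 429 in the empty retrovirus. Their differences were above 0 at 6 h (1.88 and 2.05) and below 0 at 24 h (-1.66 and -1.72). Csf1 crossed over in the same way, with 2918, 1826 and 763 in ER-MyoD RRR against 1114, 1201 and 2106 in the empty retrovirus (-2.66 ± 0.25, adjusted p = 2.41e-08). Of the fibroblast list 8 of 33 genes rose and 5 fell between 6 and 24 h in ER-MyoD RRR, and 16 rose and 1 fell in the empty retrovirus. Without ER-MyoD RRR 6 h replicate 2 the fibroblast counts in ER-MyoD RRR were 9 and 5. Of the matrix list 20 of 52 rose and 4 fell in ER-MyoD RRR, and 32 rose and 0 fell in the empty retrovirus. Without the same array the matrix counts in ER-MyoD RRR were 16 and 4. Over all genes, 11% rose and 12.8% fell in ER-MyoD RRR, and 8.06% rose and 7.65% fell in the empty retrovirus.

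The balance of calls among replication and mitosis genes changed sides between 6 and 24 h. At 6 h 20 of 54 replication and mitosis genes were higher in ER-MyoD RRR and 2 lower (median 0.20), or 19 and 4 without ER-MyoD RRR 6 h replicate 2, and at 24 h 2 were higher and 21 lower. The difference moved down for 28 of the 54 and up for 0, or 24 and 0 without that array. Between 6 and 24 h 51 of them fell in ER-MyoD RRR (median -1.88) and 37 in the empty retrovirus (median -1.01). Without that array 48 fell in ER-MyoD RRR (median -1.92). Over all genes, 7.18% were higher and 6.59% lower at 6 h, and the difference moved up for 4.5% and down for 5.85%. Between 6 and 24 h 12.8% of all genes fell in ER-MyoD RRR and 7.65% in the empty retrovirus. Mcm6 itself did not change sides by mean signal. It averaged 2152, 1649 and 374 with ER-MyoD RRR and 2231, 2079 and 742 in the empty retrovirus, lower in ER-MyoD RRR each time. Cdkn1a averaged 2571, 2812 and 5005 in ER-MyoD RRR against 1319.5, 1376 and 985 in the empty retrovirus.

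Cholesterol genes were furthest apart before 24 h. All 20 measured members were higher in ER-MyoD RRR at 6 h (median 1.30), with or without replicate 2, 19 at 12 h (median 2.04) and 10 at 24 h (median 0.58). Between 6 and 24 h all 20 rose in ER-MyoD RRR (median 1.65) and all 20 in the empty retrovirus (median 2.60), and the difference moved down for 10 and up for 0. Without ER-MyoD RRR 6 h replicate 2, 19 rose in ER-MyoD RRR, and the difference moved down for 10 and up for 1. Over all genes, 7.18% were higher and 6.59% lower at 6 h, and 5.07% were higher at 12 h. The difference moved up for 4.5% of all genes and down for 5.85%. Fdft1 averaged 1269.8, 2219 and 3768 in ER-MyoD RRR against 231, 312 and 1123 in the empty retrovirus, a gap that narrowed as the control rose. Interferon genes showed 0 higher and 1 lower of 28 at 6 h, and between 6 and 24 h 4 of them rose and 2 fell in ER-MyoD RRR, where 11% of all genes rose, while 9 rose and 0 fell in the empty retrovirus, where 8.06% of all genes rose. Ifit3 averaged 109, 52.9 and 41.8 in ER-MyoD RRR against 78.3, 90.7 and 255 in the empty retrovirus (-3.14 ± 0.60, adjusted p = 0.000547).

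**Figure D4:**
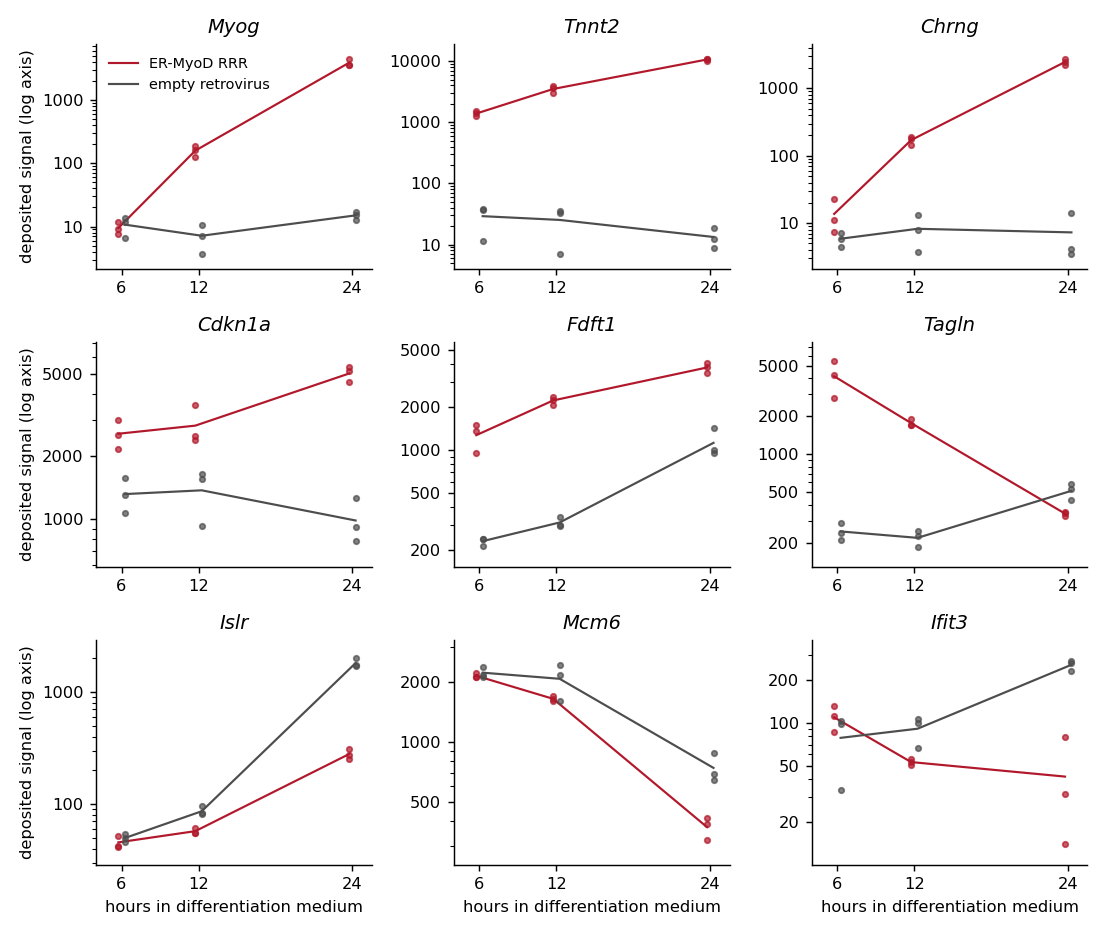
Deposited signal (log axis) of 9 genes at 6, 12 and 24 h in differentiation medium, with red for ER-MyoD RRR and grey for the empty retrovirus. Points are single arrays and lines join the means of 3. Myog and Chrng leave the control after 6 h, Tagln falls through the control level to a mean of 340.4 in ER-MyoD RRR against 515 in the empty retrovirus, and Islr rises in both groups, to 279 in ER-MyoD RRR against 1809 in the empty retrovirus.

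The last comparison set both fusions side by side at 24 h, to show where the form with replaced lysines gave another level. Against the same 3 empty retrovirus arrays, ER-MyoD wt had 2066 genes higher (11.4%) and 2538 lower (14%), and since the controls are shared the counts are not independent of those for ER-MyoD RRR. The difference between the fusions, tested directly as ER-MyoD RRR minus ER-MyoD wt, passed for 976 genes (5.36%), 609 upward (3.35%) and 367 downward (2.02%). Under median centring 176 were higher and 299 lower, a share of upward calls of 37.1% against 62.4%, so the split between directions depends on the scaling. With only the 6 arrays compared in the fit the counts were 243 and 194, and they were 404 upward without ER-MyoD RRR replicate 1 and 236 or 241 downward without ER-MyoD wt replicate 1 or 2.

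Several leading muscle genes did not differ detectably between the fusions. Relative to the empty retrovirus, the log2 difference was 8.54 in ER-MyoD RRR and 8.78 in ER-MyoD wt for Tnnt2 (difference -0.24 ± 0.23, adjusted p = 0.696). It was 7.10 and 7.64 for Myog (difference -0.54 ± 0.22, adjusted p = 0.195), and 6.86 and 7.69 for Chrng (difference -0.83 ± 0.28, adjusted p = 0.0916). A p above the threshold does not show that the fusions act alike, and all 3 estimates were below 0. Other muscle genes passed and were lower in ER-MyoD RRR: the fusions differed by -1.08 ± 0.26 for Unc45b, -0.91 ± 0.21 for Hrc, -0.92 ± 0.15 for Eno3, -1.12 ± 0.21 for Dmpk and -1.30 ± 0.26 for Chrnd (adjusted p = 0.01, 0.00709, 0.000205, 0.000836 and 0.00167).

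Between the fusions, 3.35% of all genes differed upward and 2.02% downward. By list, they differed in 5 of 53 sarcomere genes downward and 2 upward (median -0.39). Of 29 calcium genes 4 differed downward and 0 upward (median -0.45). Of 25 energy genes 4 differed downward and 0 upward (median -0.22). Upward calls were found for 15 of 33 fibroblast markers (median 0.54), 20 of 52 matrix genes (median 0.41) and 20 of 54 replication and mitosis genes (median 0.49), with 0 downward in each. Median centring left 6, 9 and 2 of these upward calls, still with 0 downward, and the fit to the 6 arrays alone left 7, 12 and 4.

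Several stromal genes that fell against the empty retrovirus lay between the control and ER-MyoD wt. Tgfbr3 averaged 726 ± 74.5 in ER-MyoD RRR, 292 ± 25.4 in ER-MyoD wt and 2674 ± 195 in empty retrovirus arrays (SD, n = 3 each), and the fusions differed by 1.34 ± 0.12 (adjusted p = 3.09e-08). Ccl2 averaged 2821 ± 256 in ER-MyoD RRR, 1163 ± 84.4 in ER-MyoD wt and 5277 ± 689.8 in the empty retrovirus (1.36 ± 0.11, adjusted p = 1.67e-08), and Islr 279 ± 28.6 in ER-MyoD RRR, 117 ± 14.2 in ER-MyoD wt and 1809 ± 156 in the empty retrovirus (1.16 ± 0.20, adjusted p = 0.000563). Dkk2 averaged 38.5 ± 6.18 in ER-MyoD RRR, 13.7 ± 0.87 in ER-MyoD wt and 627 ± 79.9 in the empty retrovirus, and there the fusions did not pass (0.74 ± 0.25, adjusted p = 0.0903).

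Among the 8 largest upward differences between the fusions, 2 genes were above the control in both. Aldh1a1, a retinaldehyde dehydrogenase, had signals of 327, 333 and 478 in ER-MyoD RRR, 118, 126 and 20.5 in ER-MyoD wt and 7.98, 9.64 and 4.58 in empty retrovirus arrays (2.20 ± 0.41, adjusted p = 0.000883). ER-MyoD wt replicate 3 was far below its other two, and the call was lost with a pseudocount of 1 and in the fit to the 6 arrays alone (adjusted p = 0.0581 and 0.0579). Cpa1, a carboxypeptidase, had 119.5, 168 and 167 in ER-MyoD RRR, 21.0, 28.0 and 54.5 in ER-MyoD wt and 6.61, 14.4 and 6.79 in the empty retrovirus (1.72 ± 0.21, adjusted p = 4.23e-06), with no overlap between groups. Amot, angiomotin, had 339, 323 and 303 in ER-MyoD RRR, 154, 72.4 and 47.6 in ER-MyoD wt and 798, 808 and 737 in the empty retrovirus (1.83 ± 0.24, adjusted p = 1.62e-05), and Medag, a gene of adipogenesis, 319, 274 and 260.3 in ER-MyoD RRR, 78.6, 56.7 and 81.2 in ER-MyoD wt and 706, 546 and 469.5 in the empty retrovirus (1.79 ± 0.18, adjusted p = 1.98e-07). On the probe sets used, both lay between the control, which was highest, and ER-MyoD wt, which was lowest. Other Amot probe sets differed from the control by only 0.07 and -0.33 and did not pass. Their mean signals were 135 and 85.3 in ER-MyoD RRR and 129 and 110 in the empty retrovirus.

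The largest downward differences held several muscle genes that ER-MyoD RRR raised only part of the way. Asb2, a ubiquitin ligase subunit of muscle, had signals of 222, 188 and 135 in ER-MyoD RRR, 524, 519 and 529 in ER-MyoD wt and 55.8, 41.9 and 28.9 in empty retrovirus arrays (-1.57 ± 0.27, adjusted p = 0.000472). Ankrd2, a stretch-responsive ankyrin protein, had 98.2, 78.8 and 85.8 in ER-MyoD RRR, 252, 232 and 259.9 in ER-MyoD wt and 10.9, 24.8 and 3.92 in the empty retrovirus (-1.50 ± 0.38, adjusted p = 0.0157), a call that was lost with a pseudocount of 1 (adjusted p = 0.182) and without ER-MyoD RRR replicate 2 or 3 or ER-MyoD wt replicate 3. Lmod1, a leiomodin of smooth muscle, had 57.5, 40.4 and 30.1 in ER-MyoD RRR, 217, 243 and 144 in ER-MyoD wt and 15.3, 12.2 and 7.71 in the empty retrovirus (-1.99 ± 0.30, adjusted p = 9.05e-05). In all 3 genes the arrays of the 3 groups did not overlap. Top1mt, the mitochondrial topoisomerase, was the exception among the 8, with 187, 171 and 132 in ER-MyoD RRR, 412, 482 and 527 in ER-MyoD wt and 259, 215 and 235 in the empty retrovirus: lowest in ER-MyoD RRR and highest in ER-MyoD wt (-1.56 ± 0.16, adjusted p = 3.94e-07). Against the empty retrovirus, the call of Coq8a was lost under 9 alternatives and those of Lmod1 and Top1mt under 4 each. Among the largest upward differences, Defb15 and Wdr60 also lost that call under several alternatives. The adjusted p was 0.251 for Defb15 without empty retrovirus replicate 2 and 0.105 for Wdr60 with a pseudocount of 1. Between the fusions, the call of Cerox1 was lost under 5 alternatives, among them a pseudocount of 1 (adjusted p = 0.203), and that of Coq8a with the mean of all probe sets (adjusted p = 0.0864).

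**Figure D5:**
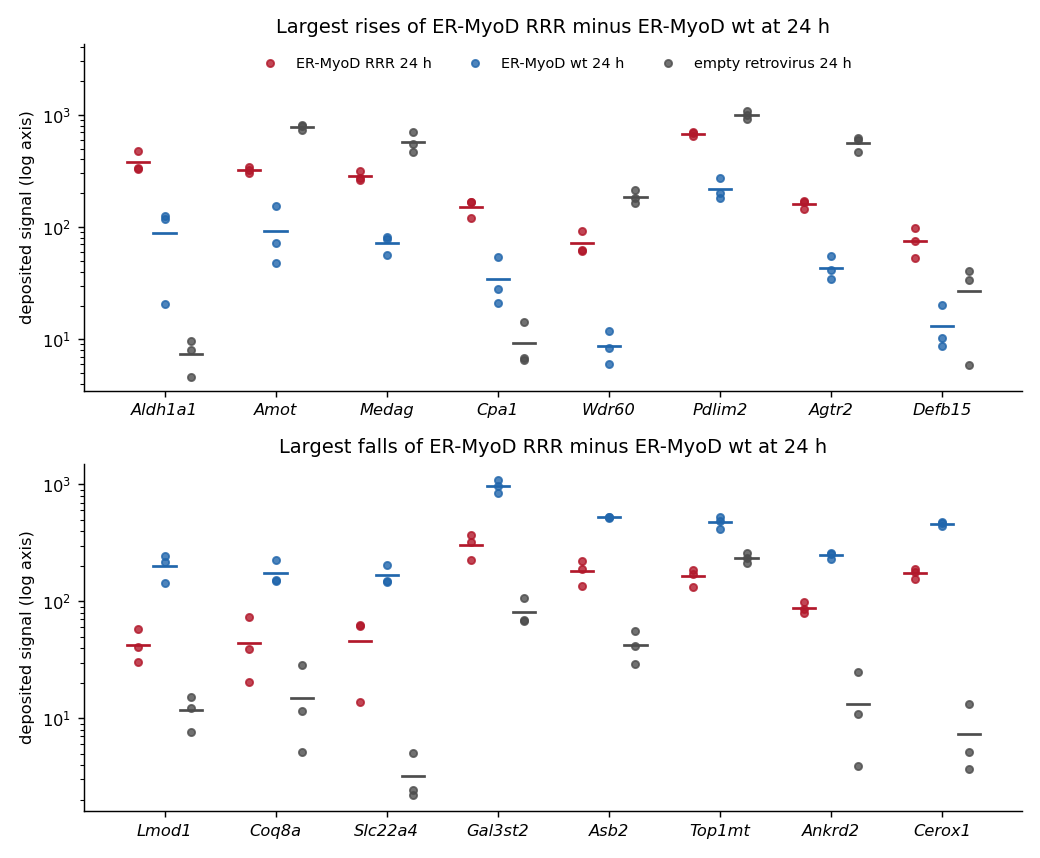
Deposited signal per array (log axis) at 24 h of the 8 largest rises (upper panel) and 8 largest falls (lower panel) of ER-MyoD RRR minus ER-MyoD wt, among genes that also passed against the empty retrovirus. Red points are ER-MyoD RRR, blue ER-MyoD wt and grey the empty retrovirus arrays, with bars at the means of 3. By group mean, 7 of 8 genes in the lower panel have ER-MyoD RRR between ER-MyoD wt and the control, and for Top1mt it is the lowest.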

How the data were processed

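Total RNA was read on Affymetrix Mouse Genome 430 2.0 arrays, and the deposited table holds linear intensities, 1 for each probe set on each array. How they were made, by which software and with which scaling, is not given in the sources used here. A mean of 150 on each array, once 2% of probe sets at either end were set aside, shows that arrays had been scaled to each other. Detection calls were not used, and precision is limited by having 3 arrays a group.

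The 64 controls among 45101 probe sets were dropped. By the platform annotation 34945 of the remainder had 1 symbol, 932 had several and 9160 had none here. Each of the 18193 genes was represented by its brightest probe set, by the mean of all arrays. log2(signal + 16) was quantile normalized and fitted with limma 3.58.1 in R 4.3.3 (1 mean for each of 10 groups, 30 arrays, 20 residual degrees of freedom, eBayes with a trend), with adjustment over all genes, after tests on simulated data. The second contrast asked whether the difference changed between 6 and 24 h, and the third compared the fusions with each other at 24 h.

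At 24 h, same-numbered arrays of ER-MyoD RRR and the empty retrovirus did not deviate together (correlations of 0.0178, -0.0363 and 0.0120). The reported fit therefore does not pair them. Other groups were not checked in this way. The comparison, the 34 gene lists and the named genes were chosen with earlier results of these data known. Named genes were Myod1 and Myf5, 16 set muscle genes, the 12 largest rises and falls without overlap between arrays, the 5 smallest p-values of each list with calls, and the 8 largest rises and falls of each other contrast. Alternatives covered scaling, pseudocount, a signal minimum, the fit, the choice of probe set and single arrays left out. Promoter sequences were read from RefSeq (GRCm38.p6).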

Additional observations from a re-analysis of the deposited data

Results flagged for a closer look

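Differences of 2 kinds between effects passed a test of the difference itself. The first is the effect of ER-MyoD RRR against the empty retrovirus at 24 h set against the same effect at 6 h, which moved up for 819 genes and down for 1064. On the log2 scale the named upward changes were 7.08 for Myog, 6.38 for Chrng, 5.74 for Tnni1, 5.18 for Idi2, 5.13 for Mylpf, 5.07 for Unc45b, 4.97 for Klhl41 and 4.71 for Actc1. The named downward changes were -4.43 for Tagln, -3.80 for AW551984, -3.76 for Steap4, -3.57 for Cdc42bpb, -3.54 for Lrrc15, -3.14 for Ror2, -3.14 for Ifit3 and -3.07 for Fat4.

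The second is the effect of ER-MyoD RRR set against that of ER-MyoD wt at 24 h, which differed upward for 609 genes and downward for 367. The named upward differences were 2.20 for Aldh1a1, 1.83 for Amot, 1.79 for Medag, 1.72 for Cpa1, 1.67 for Wdr60, 1.67 for Pdlim2, 1.52 for Agtr2 and 1.51 for Defb15. The named downward differences were -1.99 for Lmod1, -1.85 for Coq8a, -1.82 for Slc22a4, -1.64 for Gal3st2, -1.57 for Asb2, -1.56 for Top1mt, -1.50 for Ankrd2 and -1.43 for Cerox1. Calls between the fusions were lost under 5 alternatives for Cerox1 (adjusted p up to 0.203), 4 for Ankrd2 (up to 0.182), 2 for Aldh1a1 (up to 0.0581), 1 for Coq8a (0.0864) and 1 for Defb15 (0.0526).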

How the results depend on the processing

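The counts of genes past the threshold for ER-MyoD RRR minus empty retrovirus at 24 h stayed within 1.5 times of 1549 and 1898 in every alternative run except median centring, which gave 924 higher. Median centring also gave 367 upward changes between 6 and 24 h and 176 genes higher in ER-MyoD RRR than in ER-MyoD wt, and the fit to only the 6 arrays of both fusions gave 243 higher and 194 lower. The cause was not tested, though fewer arrays entered the last of these fits. With single arrays left out, the counts ran from 1220 to 1424 higher and 1534 to 1704 lower at 24 h, from 705 to 870 upward and 900 to 1043 downward for the change, and from 404 to 590 higher and 236 to 332 lower between the fusions. The lowest of these between the fusions came without ER-MyoD RRR replicate 1 (404) and without ER-MyoD wt replicate 1 (236), and 241 were lower without ER-MyoD wt replicate 2. A replicate block gave 1625 and 1958 at 24 h, 882 and 1156 for the change and 666 and 411 between the fusions. Each of these was above the count of the reported fit. Of 176 named genes 173 passed at 24 h, 147 of them in every alternative, and 26 lost the call in at least 1. Apart from Myod1, Myf5 and the 16 set muscle genes, genes were named only if they passed there. The count of 173 thus follows largely from that choice, and the 147 does not describe calls in general. Plk2 reversed, at 0.0237 with the mean of all probe sets against -0.86, by that averaging. Several probe sets were present for 89 of the 176 named genes, and in 23 of these all gave the same call. In 1, Cdt1, a probe set gave the opposite call. Values of single genes thus hold for the probe set used. The fits without ER-MyoD RRR 6 h replicate 2 in the 6 h comparison were chosen after seeing the data. Low signals limit what the smallest differences can show, since 16 was added to each.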
